A study of Mus musculus with 4 samples.

Results

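The heat-shock chaperone genes described here are 10 named mouse genes, found by matching the Ensembl identifiers of the count tables to symbols. All 10 were among the 50686 identifiers of each table, and all 10 were among the 15394 genes that passed the filter on low counts. RNA came from cultured mouse cells of spleen and lymph node, per the labels, with 1 library each of stimulated Yap KO, stimulated WT, unstimulated Yap KO and unstimulated WT cells. The titles of both stimulated libraries carry the number 24 without a unit, and those of the unstimulated libraries carry none. The sources used here do not give the strain, age, stimulus, cell type, number of animals, or the Yap allele or Cre driver. Because every title carries replicate number 1, genotype and cell source cannot be told apart, and neither can stimulation and time in culture.

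Heat-shock proteins bind unfolded stretches of other proteins and keep them from clumping. HSP70 holds short exposed segments in cycles of ATP use that J-domain proteins start and exchange factors end, HSP90 takes over partly folded clients such as kinases and receptors, and the HSP60 and HSP10 chaperonin encloses proteins inside mitochondria. The transcription factor HSF1 raises several of these genes under heat or other proteotoxic stress by binding heat-shock elements, which are alternating copies of the letters GAA and TTC. In lymphocytes, growth after activation is a separate and well-known setting for higher chaperone expression.

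The start-site windows of 6 of the 10 genes were matched in RefSeq (GRCm38.p6), each 300 bases long with 250 before and 50 after the start. Windows are printed for the pair that fell most with stimulation, for Hspe1 of the pair that rose most and for the HSP110 gene. Each printed window holds a match to a pattern of heat-shock element letters, in the Hspa1a and Hspa1b windows only a shorter one. This depends on which windows were printed, because the first Hspd1 window and both Dnajb1 windows, not printed, hold none. Capitals mark every match to GAANNTTCNNGAA on either strand, and to the shorter GAANNTTC and TTCNNGAA, which read the same on both strands and lie inside the longer one wherever it occurs. Hspa1a is the minus strand of chr17:34972107-34972406, Hspa1b the minus strand of chr17:34959189-34959488, Hspe1 the plus strand of chr1:55087898-55088197 and Hsph1 the minus strand of chr5:149636287-149636586, the first of 2 Hsph1 windows.
Hspa1a: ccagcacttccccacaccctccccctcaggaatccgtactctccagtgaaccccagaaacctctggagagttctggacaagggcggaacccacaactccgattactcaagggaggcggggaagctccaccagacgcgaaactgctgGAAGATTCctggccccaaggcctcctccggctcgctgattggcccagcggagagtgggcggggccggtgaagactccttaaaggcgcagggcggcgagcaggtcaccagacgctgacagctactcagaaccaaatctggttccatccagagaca
Hspa1b: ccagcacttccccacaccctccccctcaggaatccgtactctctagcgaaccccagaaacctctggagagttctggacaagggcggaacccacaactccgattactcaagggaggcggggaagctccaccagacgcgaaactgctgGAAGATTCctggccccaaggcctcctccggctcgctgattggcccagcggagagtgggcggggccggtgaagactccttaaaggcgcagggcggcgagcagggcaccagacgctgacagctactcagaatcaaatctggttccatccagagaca
Hspe1: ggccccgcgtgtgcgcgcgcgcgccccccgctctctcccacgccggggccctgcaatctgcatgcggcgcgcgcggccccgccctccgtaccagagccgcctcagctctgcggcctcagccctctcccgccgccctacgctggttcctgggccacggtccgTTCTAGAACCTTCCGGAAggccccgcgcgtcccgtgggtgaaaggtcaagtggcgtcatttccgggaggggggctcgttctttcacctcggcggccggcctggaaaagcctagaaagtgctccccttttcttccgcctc
Hsph1: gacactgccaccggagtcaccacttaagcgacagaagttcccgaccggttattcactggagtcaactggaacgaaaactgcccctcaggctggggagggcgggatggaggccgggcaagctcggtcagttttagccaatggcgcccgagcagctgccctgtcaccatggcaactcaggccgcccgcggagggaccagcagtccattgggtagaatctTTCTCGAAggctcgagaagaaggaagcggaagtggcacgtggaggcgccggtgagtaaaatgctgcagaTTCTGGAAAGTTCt

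The windows of Hspa1a and Hspa1b were identical at 296 of 300 positions and held the same single GAANNTTC match, from 104 to 97 bases before the start in each (positions -104 and -97). The Hspe1 window held a run of 18 bases with 2 overlapping long matches, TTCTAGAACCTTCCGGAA, between positions -89 and -72. Hspe1 and Hspd1 lie head to head on chromosome 1, and 285 bases of the Hspe1 window are also in the second Hspd1 window on the opposite strand, so both genes have this run before a start site. The first Hspd1 window (chr1:55088194-55088493, minus strand) held none of the 3 patterns. Hsph1 had 1 long match, just after the start (36 to 48 bases downstream), and a short one before it. Neither window of Dnajb1 held any of the 3 patterns. Over all 32544 distinct RefSeq windows of this length, 0.608% held the long pattern, 7.89% held GAANNTTC and 8.55% held TTCNNGAA. A match is a description of letters and no evidence of binding.

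Reads in genes numbered 19935523 to 25419974 per library. Yap1 had 2 reads in stimulated Yap KO, 3 in stimulated WT, 0 in unstimulated Yap KO and 1 in unstimulated WT cells, none above the 3-count floor, and the genotype labels could therefore not be checked with Yap1. The T cell marker Cd3e had 5206, 5023, 24777 and 20647 reads in that order and Cd8a had 4858, 5538, 20341 and 18825, whereas Cd4 had at most 3. Over 8 T cell markers the summed level was 1674 and 1854 CPM (counts scaled to a common library size) in stimulated and 4854 and 4551 CPM in unstimulated Yap KO and WT cells. The 6 B cell markers summed to 23.1 and 11.8 CPM in stimulated Yap KO and WT and to 60.9 and 36.4 CPM in unstimulated Yap KO and WT cells. In the same order, 4 NK cell markers summed to 551 and 386 CPM and to 1058 and 666 CPM. Of these, Ncr1 had 1 and 0 and then 15 and 2 reads, and Klrb1c 0 and 1 and then 75 and 50. The NK sum therefore came mostly from Klrk1 and Nkg7. The 5 monocyte and macrophage markers summed to 23.4 and 17.6 CPM and to 31.5 and 26.5 CPM. The 6 stromal and endothelial markers summed to 10.5 and 11.5 CPM and to 141 and 164 CPM. Of these, Col1a1 and Col1a2 reached at most 0.708 and 1.73 CPM, and Col3a1 and Cdh5 were at 0 in every library. That sum therefore came mostly from Pdgfrb and Pecam1. Plasma cell, dendritic, neutrophil, erythroid and platelet markers summed to at most 229, 38.6, 1.90, 3.94 and 0.944 CPM in any library, and the defining platelet marker Pf4 was at 0 in all of them. Of the 229 CPM of plasma cell markers, in stimulated WT cells, Jchain and Sdc1 made up 0.572 and 4.72 CPM and Xbp1 the rest. The part of these cell types in the results below was not tested.

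Together the 10 genes took 1.10% of reads in genes in stimulated Yap KO and 1.06% in stimulated WT cells, against 0.433% in unstimulated Yap KO and 0.521% in unstimulated WT cells. Their makeup differed between the states. Hspa1a and Hspa1b, the stress-inducible HSP70 genes, made up 0.0684% (95% interval 0.0579 to 0.0802%) of the reads of the 10 genes in stimulated Yap KO and 0.0388% (0.0310 to 0.0479%) in stimulated WT cells. The same pair made up 5.01% (4.88 to 5.14%) in unstimulated Yap KO and 11.2% (11.0 to 11.4%) in unstimulated WT cells. The mitochondrial chaperonin pair Hspd1 and Hspe1 made up 20.9% and 19.6% in stimulated Yap KO and WT cells, against 5.51% and 4.68% in unstimulated Yap KO and WT cells. These intervals, like those of ratios below, are exact (Clopper-Pearson) and cover counting error only.

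**Figure D1:**
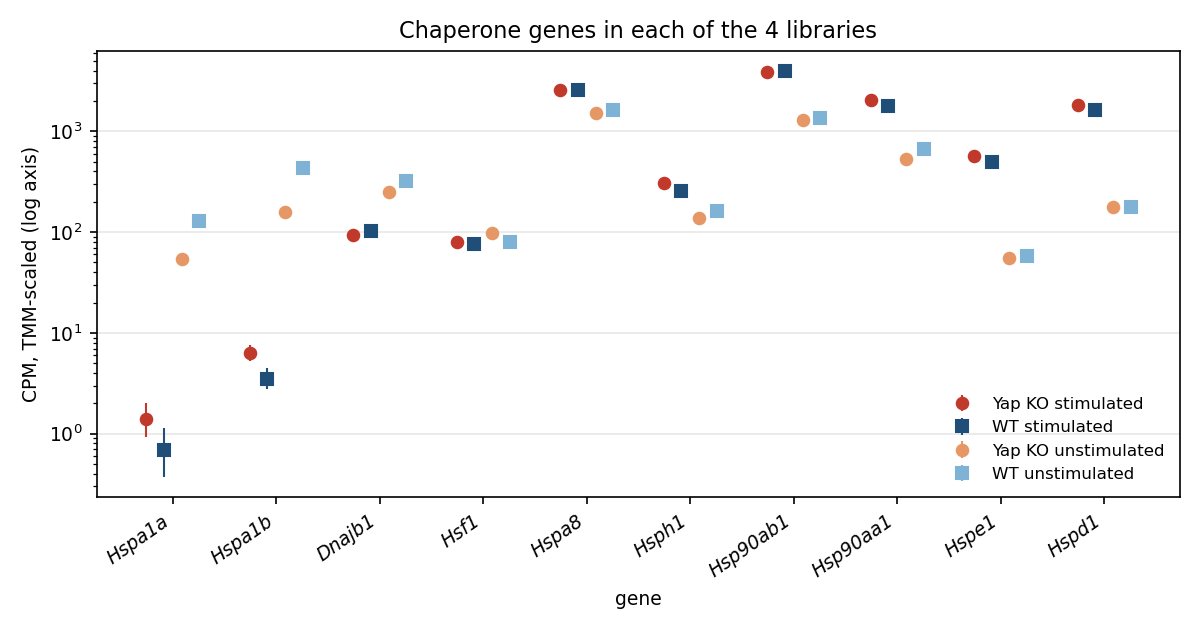
Level of each gene in each of the 4 libraries, in TMM-scaled CPM on a log axis; each point is 1 library and bars are exact 95% Poisson intervals, often smaller than the point. Hspa1a lies between 0.686 and 129.8 CPM and Hspa1b between 3.53 and 434 CPM, while Hsp90ab1 and Hspa8 lie at or above 1282 and 1505 CPM in every library.

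The first comparison set stimulated against unstimulated cells. Of the 10 genes, 6 rose, 3 fell and 1 was not called by edgeR's quasi-likelihood test, in which state and genotype were additive (adjusted p under 0.05). The genes that rose were Hspd1, Hspe1, Hsp90aa1, Hsp90ab1, Hsph1 and Hspa8, the genes that fell were Hspa1a, Hspa1b and Dnajb1, and Hsf1 was not called. Over all tested genes 64.6% were called, 32.1% as higher and 32.5% as lower, so the share that fell was near the background. Among the 9186 genes averaging at least 10 CPM, a class that holds all 10, the same test called 6937. The median log2 ratio of the 10 genes was 0.96 in Yap KO and 0.66 in WT cells, beside -0.05 and -0.02 over all tested genes. All 10 ratios had the same sign in both genotypes, but the share of all tested genes that did is not given here. In Yap KO cells 5 genes were at least 2-fold higher and 3 at least 2-fold lower (22.7% and 25.9% of tested genes), and in WT cells 4 were higher and 3 lower by that much (23.8% and 24.5%). With 1 library per group, the p-values do not rest on replicate cultures. Each gene's own spread comes only from how alike the 2 genotypes changed, at 1 residual degree of freedom. It is drawn toward a spread pooled over all tested genes, which counts as 8.45 prior degrees of freedom. The p-values therefore rest mostly on the pooled spread. In bulk RNA, fewer cells of a type and less RNA per cell cannot be told apart.

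Hspa1a (ENSMUSG00000091971) and Hspa1b (ENSMUSG00000090877), neighbouring genes on chromosome 17, encode the HSP70 that is made on heat or protein stress. Hspa1a had 1.40 CPM (27 reads) in stimulated Yap KO and 0.686 CPM (14 reads) in stimulated WT cells, against 53.8 CPM (1397 reads) in unstimulated Yap KO and 129.8 CPM (2972 reads) in unstimulated WT cells. Both stimulated values lay far below both unstimulated values, and the groups did not overlap. The share of all tested genes without overlap is not given, here or for the genes below. Of all tested genes, 64.6% were called with stimulation. Hspa1a fell by 6.36 ± 0.39 on the log2 scale (SE, edgeR adjusted p = 5.57e-07). Only 2.03% of tested genes had an absolute change as large or larger. Hspa1b had 6.38 CPM (123 reads) in stimulated Yap KO and 3.53 CPM (72 reads) in stimulated WT cells, against 159 CPM (4121 reads) in unstimulated Yap KO and 434 CPM (9942 reads) in unstimulated WT cells. It fell by 5.74 ± 0.44 (edgeR adjusted p = 2.47e-06). The 2 genotypes behind each coefficient differed. The log2 ratio of Hspa1a was -5.18 in Yap KO and -7.39 in WT cells, and that of Hspa1b was -4.62 and -6.91. DESeq2 gave a wider SE of 1.01 for both genes, so the size of the falls is less certain than the edgeR SEs state.

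The reading frames of Hspa1a and Hspa1b were 99.4% identical, and 63.8% of the 31-base words of Hspa1a were also in Hspa1b transcripts. Reads aligned in more than 1 place stand only in the summary entries of the tables, so the split between the 2 genes is uncertain. How much of each gene could be counted depends on the read length, which the tables do not hold. Hspa1b had 4.56 reads per Hspa1a read (95% interval 2.98 to 7.19) in stimulated Yap KO and 5.14 (2.88 to 9.87) in stimulated WT cells, against 2.95 (2.78 to 3.14) in unstimulated Yap KO and 3.35 (3.21 to 3.49) in unstimulated WT cells. Summed, the pair had 7.78 and 4.21 CPM in stimulated Yap KO and WT cells, against 213 and 564 CPM in unstimulated Yap KO and WT cells. That was 27.3-fold lower in stimulated than in unstimulated Yap KO cells and 134-fold lower in stimulated than in unstimulated WT cells. Gm20481, whose exons lie opposite 19.0% of the Hspa1a exon, had 1 and 3 reads in stimulated and 308 and 693 reads in unstimulated Yap KO and WT cells, and reads of opposite genes cannot be told apart where the strand setting is not given.

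Dnajb1 (ENSMUSG00000005483, chromosome 8) encodes the J-domain protein that delivers substrates to cytosolic HSP70 and starts its ATP use. It had 93.6 CPM in stimulated Yap KO and 102.5 CPM in stimulated WT cells, against 249 CPM in unstimulated Yap KO and 321 CPM in unstimulated WT cells. Both stimulated libraries were below both unstimulated ones. Dnajb1 fell by 1.53 ± 0.13 (edgeR adjusted p = 5.06e-06), and only 0.444% of its 31-base words occur in another gene. For each 100 reads of Hspa8 there were 3.64 and 3.98 reads of Dnajb1 in stimulated Yap KO and WT cells, against 16.5 and 19.7 in unstimulated Yap KO and WT cells.

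Hspa8 (ENSMUSG00000015656, chromosome 9) encodes the constitutive HSP70 of the cytosol. Its level was 2573 CPM in both stimulated Yap KO and stimulated WT cells, against 1505 CPM in unstimulated Yap KO and 1629 CPM in unstimulated WT cells. It rose by 0.72 ± 0.12 (edgeR adjusted p = 0.000594), the smallest of the 6 rises. For every read of the inducible pair there were 331 reads of Hspa8 in stimulated Yap KO and 610.5 in stimulated WT cells, against 7.08 in unstimulated Yap KO and 2.89 in unstimulated WT cells. Hspa8 shares 44.8% of its 31-base words with other genes, mostly processed pseudogenes, so its count may miss reads from those stretches. The pseudogene Gm15459, which holds 38.6% of those words, had 8268 and 8519 reads in stimulated and 6158 and 6427 reads in unstimulated Yap KO and WT cells.

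Hsph1 (ENSMUSG00000029657, chromosome 5) encodes HSP110, which exchanges nucleotide on HSP70 and takes part in undoing protein clumps. It had 306 CPM in stimulated Yap KO and 254 CPM in stimulated WT cells, against 138 CPM in unstimulated Yap KO and 160.2 CPM in unstimulated WT cells. The lowest stimulated value was above the highest unstimulated value. Hsph1 rose by 0.91 ± 0.15 (edgeR adjusted p = 0.000399), and none of its 31-base words occurred in a transcript of another gene (0 of 7421 words).

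Hsp90ab1 (ENSMUSG00000023944, chromosome 17) and Hsp90aa1 (ENSMUSG00000021270, chromosome 12) encode the constitutive and the more inducible form of cytosolic HSP90. Hsp90ab1 had 3898 CPM in stimulated Yap KO and 3931 CPM in stimulated WT cells, against 1282 CPM in unstimulated Yap KO and 1369 CPM in unstimulated WT cells. Hsp90aa1 had 2037 CPM in stimulated Yap KO and 1792 CPM in stimulated WT cells, against 527 CPM in unstimulated Yap KO and 666 CPM in unstimulated WT cells. Neither gene overlapped between the states. Hsp90ab1 rose by 1.56 ± 0.12 (edgeR adjusted p = 3.18e-06) and Hsp90aa1 by 1.69 ± 0.15 (edgeR adjusted p = 7.56e-06). Per kilobase of exon, Hsp90ab1 had 2.51 and 2.88 reads for each read of Hsp90aa1 in stimulated Yap KO and WT cells, against 3.19 and 2.70 in unstimulated Yap KO and WT cells. Other genes, pseudogenes among them, hold 51.5% of the 31-base words of Hsp90aa1 and 13.2% of those of Hsp90ab1, so this ratio is uncertain.

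Hspd1 (ENSMUSG00000025980) and Hspe1 (ENSMUSG00000073676) encode HSP60 and HSP10, the barrel and the lid of the mitochondrial chaperonin. Hspd1 had 1814 CPM in stimulated Yap KO and 1631 CPM in stimulated WT cells, against 179 CPM in unstimulated Yap KO and 178 CPM in unstimulated WT cells. Hspe1 had 569 CPM in stimulated Yap KO and 500.0 CPM in stimulated WT cells, against 55.0 CPM in unstimulated Yap KO and 57.4 CPM in unstimulated WT cells. These were the largest rises of the 10 genes and lay well apart from the unstimulated values. Hspd1 rose by 3.27 ± 0.14 (edgeR adjusted p = 5.86e-08) and Hspe1 by 3.25 ± 0.14 (edgeR adjusted p = 7.37e-08). In Yap KO cells Hspd1 was 10.1-fold and Hspe1 10.4-fold higher, and in WT cells they were 9.19-fold and 8.70-fold higher. The 2 genes kept close to 1 ratio in every library, with 3.19 and 3.26 Hspd1 reads per Hspe1 read in stimulated Yap KO and WT cells, against 3.25 and 3.09 in unstimulated Yap KO and WT cells. Their first exons overlap on opposite strands by 112 bases, 4.24% of the Hspd1 and 7.60% of the Hspe1 exon length, and most of the Hspe1 window printed above is also a start-site window of Hspd1. Other genes hold 53.1% of the 31-base words of Hspd1 and 30.5% of those of Hspe1, and the pseudogene Hspd1-ps3 had 351 and 332 reads in stimulated and 45 and 49 reads in unstimulated Yap KO and WT cells.

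Hsf1 (ENSMUSG00000022556, chromosome 15) encodes the heat-shock transcription factor. Its level was 79.1 CPM in stimulated Yap KO and 75.6 CPM in stimulated WT cells, against 97.9 CPM in unstimulated Yap KO and 79.6 CPM in unstimulated WT cells. The log2 coefficient was -0.19 ± 0.13 (edgeR adjusted p = 0.224). In WT cells the ratio of -0.07 had a counting interval of -0.17 to 0.02, and in Yap KO cells the ratio of -0.31 had one of -0.40 to -0.21. The activity of HSF1 is controlled largely at the protein level, which RNA counts do not measure.

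**Figure D2:**
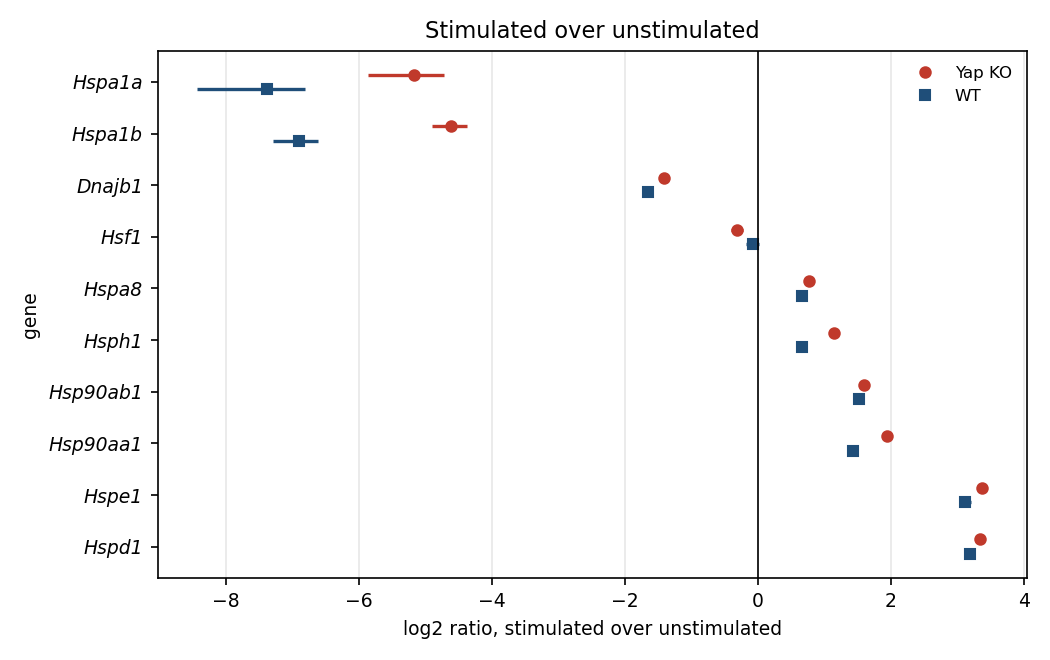
Log2 ratio of stimulated over unstimulated cells for each gene in Yap KO (circles) and WT (squares), 1 library per group, prior count 2; bars are exact 95% counting intervals. Hspa1a and Hspa1b stand far to the left, at -5.18 and -4.62 in Yap KO and at -7.39 and -6.91 in WT, and Hspd1 and Hspe1 stand farthest to the right.

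Per kilobase of merged exon (RPKM from GENCODE M21 lengths), the order of the genes also differed between the states. In stimulated Yap KO and WT cells the order began with Hsp90ab1 at 1300 and 1311, Hspd1 at 687 and 617, Hspa8 at 598 and 598, Hsp90aa1 at 518 and 456 and Hspe1 at 386 and 339 RPKM. It ended with Hsph1 at 42.1 and 34.9, Dnajb1 at 29.2 and 32.0, Hsf1 at 11.1 and 10.7, Hspa1b at 2.28 and 1.26 and Hspa1a at 0.472 and 0.231 RPKM. In unstimulated Yap KO and WT cells the order began with Hsp90ab1 at 427 and 456, Hspa8 at 350.0 and 379 and Hsp90aa1 at 134 and 169 RPKM. Dnajb1 followed at 77.7 and 100.3, Hspd1 at 67.7 and 67.2, Hspa1b at 56.6 and 155, Hspe1 at 37.3 and 39.0, Hsph1 at 19.0 and 22.1, Hspa1a at 18.1 and 43.8 and Hsf1 at 13.8 and 11.2 RPKM. Where the order of neighbours differed between the genotypes (Hspa1b against Dnajb1 and Hspd1, and Hspa1a against Hspe1 and Hsph1), it is not established. Because RPKM divides by the whole exon length, and other genes hold 70.1% of the 31-base words of Hspa1a, 68.1% of Hspa1b, 53.1% of Hspd1, 51.5% of Hsp90aa1 and 44.8% of Hspa8, the order among these genes and against the others is uncertain in every library.

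The second comparison set Yap KO against WT cells. In unstimulated cells 8 of the 10 genes had a ratio below 0, where 44.9% of tested genes did, and in stimulated cells 2 of the 10 had one, where 50.1% of tested genes did. Scaled to total counts, 9 were below 0 in unstimulated cells (47.6% of tested genes) and 3 in stimulated cells (51.0%), because the ratios of Hspd1 and Hspa8 near 0 changed sign. The median log2 ratio was 0.17 in stimulated cells and -0.17 in unstimulated cells, beside 0.00 and 0.03 over all tested genes. None of the 10 was called in the edgeR quasi-likelihood test, beside a background of 1.18% of tested genes, 0.695% higher and 0.487% lower. Hspa1a alone of the 10 had an unadjusted p under 0.05 (0.0313, edgeR adjusted p = 0.416), beside 1546 of all 15394 tested genes. DESeq2 also called none of the 10. With no filter on low counts, edgeR called Hspa1a at -0.81 (adjusted p = 0.00478) and Hspa1b at -0.62 (adjusted p = 0.00804) lower in Yap KO. That fit called 671 of 25195 genes. In the filtered fit the coefficients of Hspa1a and Hspa1b were -0.86 and -0.66. Their SEs there were 0.34 and 0.40, against 0.21 and 0.16 without the filter. The additive fit assumes 1 genotype difference for both states, which the Hspa1 pair did not show, and as a statement about animals its p-values would be too small.

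Hspa1a and Hspa1b had the widest genotype ratios of the 10 genes in each state. In stimulated cells the log2 ratio of Yap KO over WT was 0.94 (95% counting interval 0.05 to 2.07) for Hspa1a, from 27 against 14 reads, and 0.84 (0.42 to 1.29) for Hspa1b, from 123 against 72 reads. In unstimulated cells it was -1.27 (-1.36 to -1.18) for Hspa1a and -1.45 (-1.50 to -1.40) for Hspa1b. Yap KO was thus the higher library when stimulated and the lower when unstimulated. These 2 were the only genes of the 10 at least 2-fold lower in unstimulated Yap KO cells, where 3.62% of tested genes were. No gene of the 10 was at least 2-fold higher in that state (4.74% of tested genes, and 8.37% in either direction). In stimulated cells none passed 2-fold in either direction on this scale (9.8% of tested genes, 4.11% higher and 5.69% lower).

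The other 8 genes differed by less between the genotypes. Hsp90aa1 had log2 ratios of 0.18 (0.16 to 0.21) in stimulated and -0.34 (-0.37 to -0.30) in unstimulated cells, and Hsph1 had 0.27 (0.21 to 0.32) and -0.22 (-0.28 to -0.15). Dnajb1 was lower in Yap KO in both states, at -0.13 (-0.22 to -0.04) stimulated and -0.37 (-0.42 to -0.32) unstimulated. Hspd1 had 0.15 (0.13 to 0.18) and 0.01 (-0.05 to 0.07), and Hspe1 had 0.19 (0.15 to 0.23) and -0.06 (-0.17 to 0.05). Hspa8 had 0.00 (-0.02 to 0.02) and -0.11 (-0.13 to -0.09), and Hsp90ab1 had -0.01 (-0.03 to 0.00) and -0.09 (-0.12 to -0.07). Hsf1 went the other way in unstimulated cells, at 0.30 (0.21 to 0.39), and had 0.07 (-0.04 to 0.17) in stimulated cells. Narrow intervals reflect deep counts of 1 library each and hold no spread between cultures.

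**Figure D3:**
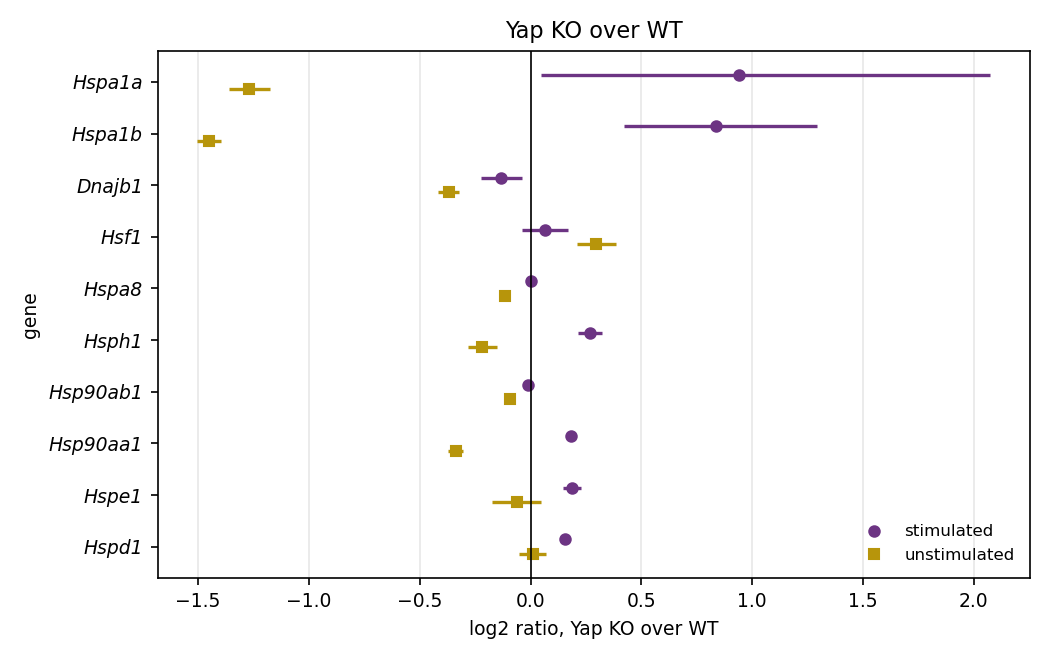
Log2 ratio of Yap KO over WT for each gene in stimulated (circles) and unstimulated (squares) cells, 1 library per group, prior count 2; bars are exact 95% counting intervals. Hspa1a and Hspa1b lie at 0.94 and 0.84 in stimulated cells and at -1.27 and -1.45 in unstimulated cells, and the other 8 genes lie within 0.5 of 0.

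The third comparison asked whether the response to stimulation differed between the genotypes, for which the design has no test. The log2 response was more positive in Yap KO than in WT cells for 9 of the 10 genes, where 45.3% of tested genes were, and Hsf1 was the exception. The difference, Yap KO minus WT, was 2.21 (95% interval 1.36 to 3.23) for Hspa1a and 2.29 (1.88 to 2.73) for Hspa1b, where the intervals are a normal approximation of counting error. Absolute differences of 1 or more were found in 13.0% of tested genes. For the other genes it was 0.52 for Hsp90aa1, 0.48 for Hsph1, 0.25 for Hspe1, 0.24 for Dnajb1, 0.14 for Hspd1, 0.11 for Hspa8, 0.08 for Hsp90ab1 and -0.23 for Hsf1. All 4 libraries enter each of these differences, so 1 unusual library would move all of them. Each difference is also the stimulated minus the unstimulated ratio of Yap KO over WT. It therefore restates the second comparison and is no separate evidence.

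Related chaperone families were described from lists that include some of the 10 genes. Each count of rises and falls below stands beside the 32.1% of all tested genes called higher and the 32.5% called lower, and among genes averaging at least 10 CPM 3446 of 9186 were called higher and 3491 lower. In the HSP70 and HSP110 family, 13 of 15 genes were tested, 9 rose and 3 fell, with a median log2 coefficient of 1.09 beside -0.05 over all tested genes. Outside the 10 genes, Hspa9, the mitochondrial HSP70, rose by 2.25 ± 0.13 and Hspa4l, an HSP110 relative, by 1.91 ± 0.14, while Hspa2, known from the testis, fell by 0.90 ± 0.34. All 4 HSP90 genes rose, with Hsp90b1 of the endoplasmic reticulum at 2.08 ± 0.13 and mitochondrial Trap1 at 1.10 ± 0.15. Of 20 HSP90 co-chaperones 13 rose and 1 fell (median 0.96), with Ppid, a peptidyl-prolyl isomerase, at 2.40 ± 0.13, Nudc at 2.11 ± 0.13 and Unc45a, a myosin chaperone, at -0.48 ± 0.12. Of 14 HSP70 exchange factors and adaptors 10 rose and 1 fell (median 0.96), with Bag2 at 2.94 ± 0.18 and Bag5 at -0.71 ± 0.14.

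Folding machines of other compartments were mostly higher in stimulated cells as well. Of 16 genes of the CCT chaperonin and prefoldin, which fold actin and tubulin, 14 rose and 2 fell (median 1.57), with Tcp1 at 1.99 ± 0.13 and Pfdn4 at 1.97 ± 0.18 against Pfdn5 at -1.64 ± 0.19 and Cct6b, which had at most 22 reads in any library. Of 17 mitochondrial chaperones and proteases 14 rose and none fell (median 0.88), led by the 2 chaperonin genes and Lonp1, a matrix protease, at 2.53 ± 0.13. Of 17 endoplasmic reticulum chaperones 14 rose and 2 fell (median 1.12), with Sdf2l1 at 3.26 ± 0.20 and Pdia6, a disulfide isomerase, at 2.24 ± 0.13 against Dnajb9 at -2.34 ± 0.20 and Dnajc3 at -0.63 ± 0.13. Of 39 J-domain proteins 12 rose and 12 fell (median -0.02), near the 32.1% and 32.5% of all tested genes, with Dnajc21 and Dnajc2, which act at ribosomes, at 1.92 ± 0.13 and 1.62 ± 0.12 against Dnajc28 at -2.46 ± 0.41 and Dnajc6, which had at most 35 reads. Only 2 of 10 small heat-shock protein genes were tested and neither was called by edgeR, and Hspb1, the best known of them, had 8 and 5 reads in stimulated and 4 and 11 reads in unstimulated Yap KO and WT cells.

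**Figure D4:**
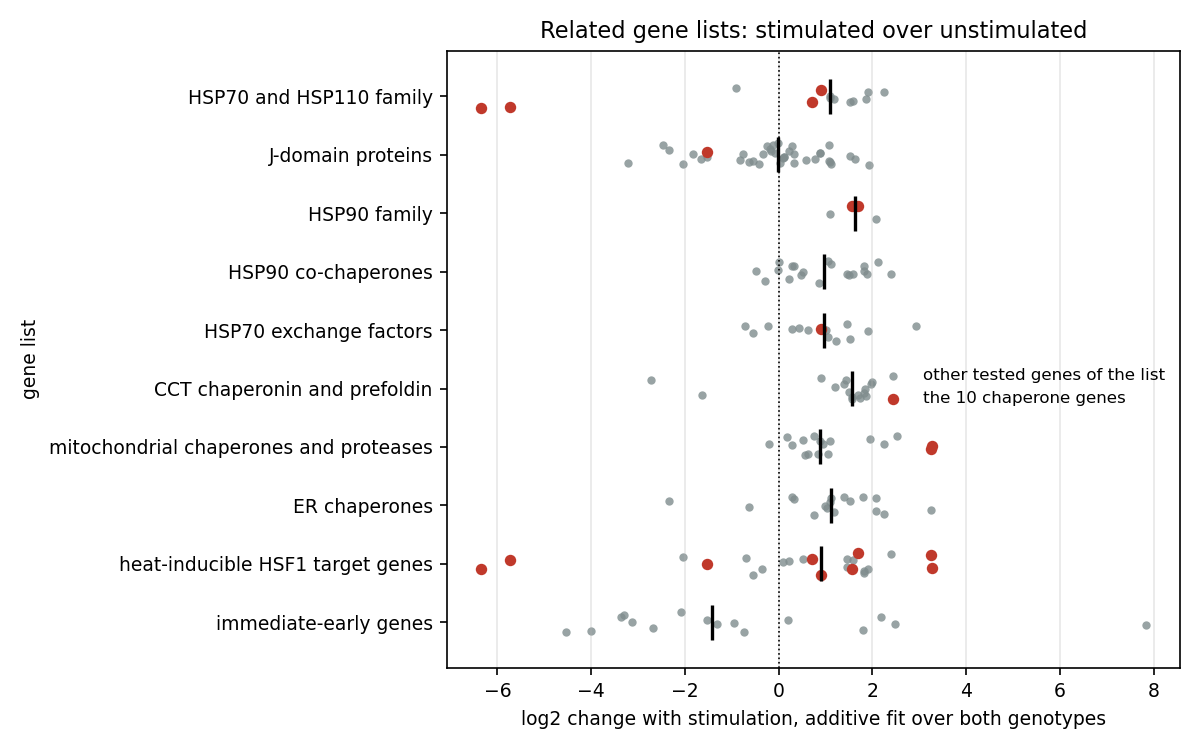
Log2 change with stimulation in the additive edgeR fit for the tested genes of 10 lists; each point is a gene, red marks the 10 chaperone genes, black bars are list medians, and vertical scatter carries no meaning. Hspa1a and Hspa1b lie left of every other gene plotted, and the medians run from -1.43 for immediate-early genes to 1.63 for the HSP90 family.

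Genes known to be raised by HSF1 under heat did not move as 1 group. Of 23 tested, 14 rose and 6 fell (median 0.91), and outside the 10 genes 8 of 14 rose and 3 fell (median 0.99). Dnajb4, a J-domain protein, fell by 2.05 ± 0.19 and Zfand2a, a proteasome-associated stress protein, by 0.70 ± 0.16. Dnajb4 had 9.49 CPM in stimulated Yap KO and 16.3 CPM in stimulated WT cells, against 30.9 CPM in unstimulated Yap KO and 83.5 CPM in unstimulated WT cells. It was the only related chaperone gene called between the genotypes, lower in Yap KO by 1.14 ± 0.19 (edgeR adjusted p = 0.0214), with ratios of -0.77 stimulated and -1.43 unstimulated. In unstimulated cells 18 of the 23 had a ratio of Yap KO over WT below 0 (44.9% of tested genes), and in stimulated cells 7 of 23 had one (50.1%). These counts include genes of the 10 already described. Outside the 10 genes, 10 of 14 were below 0 in unstimulated and 5 of 14 in stimulated cells. Among the factors themselves, Hsf2 had a state coefficient of 0.38 (edgeR adjusted p = 0.125), Hsf4 had at most 54 reads in any library, and Hikeshi, which carries HSP70 into the nucleus, rose by 1.44 ± 0.14.

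Immediate-early genes respond quickly to many signals and to handling of cells. Of 16 tested, 11 fell and 4 rose with stimulation (median -1.43), beside 32.5% of all tested genes called lower and 32.1% called higher, and 1 was not called. Fos had 11.9 and 13.1 CPM in stimulated Yap KO and WT cells, against 179 and 465 CPM in unstimulated Yap KO and WT cells, and fell by 4.54 ± 0.27. Dusp1, a phosphatase of MAP kinases, had 21.2 and 21.1 CPM in stimulated Yap KO and WT cells, against 260 and 446 CPM in unstimulated Yap KO and WT cells. Atf3 and Nr4a1 went the other way, rising by 7.85 ± 0.20 and 2.48 ± 0.16. In unstimulated cells 13 of the 16 had a ratio of Yap KO over WT below 0 (median -0.52, beside 44.9% of tested genes below 0). In stimulated cells 8 of 16 had one (median -0.01, beside 50.1% of tested genes). Hspa1a and Hspa1b had ratios of -1.27 and -1.45 in unstimulated and of 0.94 and 0.84 in stimulated cells. The part of cell handling in the levels of the HSP70 pair was not tested.

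The genes most like Hspa1b and Hspd1 over the 4 libraries were found by the root mean square difference of mean-centred log2 CPM, among 9178 other genes averaging at least 10 CPM. For Hspa1b they were Ccr9, at a difference of 0.41, Cd1d1 at 0.50 and Itgae at 0.55. Ccr9 had 0.778 and 0.588 CPM in stimulated Yap KO and WT cells, against 35.2 and 129.4 CPM in unstimulated Yap KO and WT cells. For Hspd1 they were Pole, at 0.02, Orc6 at 0.06 and Mad2l1 at 0.06. Pole had 232 and 217 CPM in stimulated Yap KO and WT cells, against 23.1 and 23.2 CPM in unstimulated Yap KO and WT cells. With 4 libraries this likeness is a description.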

How the data were processed

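Each library had its own table, in which the authors deposited unnormalized counts of reads for every Ensembl gene, followed by summary entries for unassigned reads. Build mm9 is named, per the submitters' processing notes. The aligner, annotation release and strand setting were not given in sources used here, and the tables hold no coordinates. Positions printed are from GENCODE M21 or RefSeq on GRCm38 and were not used for counting. The labels name the Illumina MiSeq, but tables of 50257047 to 67650640 entries are large for that instrument, and instrument and annotation could not be settled. Of 50686 identifiers, 50376 matched a symbol. Library sizes exclude the summary entries, of which reads in no gene were 48.3 to 52.5% of all entries, ambiguous reads 0.635 to 0.755%, unaligned reads 7.20 to 7.77% and reads aligned in more than 1 place 3.48 to 4.31%.

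Genes were kept with filterByExpr by state (minimum count 10) and scaled with TMM (factors 0.968 to 1.04). Tests used edgeR (version 4.0.16, R 4.3.3) and its quasi-likelihood fit of state plus genotype, with Benjamini-Hochberg adjustment over 15394 genes. The fit had 1 residual degree of freedom per gene and a median of 8.45 prior degrees of freedom from the spread pooled over genes. The code was first run on simulated counts in which a small share of genes changed with state and none with genotype. That setting is simpler than these data, so the run only checks the code. SEs are the coefficient divided by the root of F. Ratios of 1 library to 1 library used a prior count of 2 and have exact counting intervals and no p-value, and differences of such ratios have approximate ones; folds are ratios of CPM without it. CPM are TMM-scaled except marker sums, which use all reads in genes. RPKM divide CPM by merged exon length. Shared 31-base words came from GENCODE transcripts of both strands (Biopython 1.88 for reading-frame identity). DESeq2 (1.42.0), other scalings, filters, prior counts and single libraries left out were tried.

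Beside the 10 genes, the text names per list at most 2 genes with the largest called rise and 2 with the largest called fall, and 1 called in each genotype direction. Hspb1 and Hsf2 were named after their values were seen. The members, lists and rules were chosen with earlier results of these data known.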

Additional observations from a re-analysis of the deposited data

Results flagged for a closer look

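For 4 genes the difference between Yap KO and WT had opposite signs in the 2 states, with each counting interval on its own side of 0. The share of all tested genes that meet this rule is not given here, so the 4 are not shown to be unusual. The stimulated log2 ratio minus the unstimulated one was 2.21 for Hspa1a and 2.29 for Hspa1b, where Yap KO was higher when stimulated and lower when unstimulated. It was 0.52 for Hsp90aa1 and 0.48 for Hsph1, in the same directions. These 4 values are the response differences of the third comparison again. With 1 library per group the difference between the states was not tested. The stimulated values of Hspa1a rest on 27 reads in Yap KO and 14 in WT cells.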

How the results depend on the processing

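The calls of the 10 genes with stimulation, 6 higher and 3 lower, were the same under DESeq2, both other scalings, both other filters and state as the only term, and with each library left out in turn (9 called each time). With Hspa1a and Hspa1b summed, 6 rose and 2 fell of 9. All 109 alternative values of single genes for stimulation kept their sign and side of the threshold. Leaving out 1 library with state as the only term gave 7645 to 8163 called genes, against 9233 with that term and all 4 libraries and 9938 in the additive fit. Between genotypes 182 of 15394 genes were called, 671 of 25195 with no filter on low counts and 84 of 9186 among genes averaging at least 10 CPM. With no filter 2 of the 10 genes were called between genotypes, Hspa1a and Hspa1b, and the cause was not tested. The additive genotype coefficient of Hspa1a was -0.86, and -0.19 in DESeq2, and that of Hspa1b was -0.66, and -0.32 in DESeq2. Scaling to total counts moved the median of all genes from -0.05 to -0.14 for stimulation, and 14 of 40 ratios of single libraries left their counting interval, with the same sign, while Hspa8 in stimulated cells (-0.01) and Hspd1 in unstimulated cells (-0.01) stayed within theirs and changed sign between Yap KO and WT. No paired analysis was possible because the groups share only replicate number 1, so a block by that number cannot be fitted; the genotype term of the additive fit already sets each stimulated library against the unstimulated one of its genotype. Depth limits Hspa1a most, at 14 and 27 reads in the stimulated libraries.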
